A study of Mus musculus with 16 samples.

Results

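The transcription regulators Pax8, Lhx1, Emx2, Gata3, Tfap2a, Sall1, Eya1, Osr1, Wt1 and Sim1, known from the Wolffian duct and the mesonephros or from related tissues, were followed through development of the mouse epididymis. Every probe set that the array annotation lists with one of these symbols alone was taken, 18 of the 45101 on the array, for 10 of 18193 genes. A probe set was tested if its signal lay at or above the median of its own array on at least 3 of the 15 epididymis arrays. That left 25981 probe sets, among them 13 of the 18, with at least 1 for each of the 10 genes. The 5 others were too dim and are given as values.

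RNA of whole wild-type epididymides of CD-1 males, an outbred mouse stock, had been hybridised to Affymetrix expression arrays after 2 rounds of amplification. The stages, with 3 arrays each, were gestational day 12 (gd12), 14 (gd14), 16 (gd16) and 18 (gd18) and the second day after birth (postnatal day 2, pnd2), placed by the labels at Theiler stages 20, 22, 24, 26 and 27. The sample labels of all gd12 and gd14 arrays give pools of 3, whereas the series description gives both epididymides of 1 animal for every sample, each animal from its own dam. The labels of the gd16, gd18 and pnd2 arrays give no pooling, so that stage and pooling cannot be told apart between the early and the late stages. A further array held a pool of 8 whole newborns of postnatal day 0.5, 4 male and 4 female, also wild-type. Signals of different probe sets are not compared with each other, because each probe set has its own response.

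The Wolffian duct, or nephric duct, forms from intermediate mesoderm and induces the tubules of the mesonephros, the embryonic kidney, alongside it. In males androgen keeps the duct, which becomes the epididymis and vas deferens, and mesonephric tubules supply the efferent ductules. Pax8, Lhx1, Gata3 and Emx2 are known as regulators of the duct epithelium itself, whereas Osr1, Eya1, Sall1 and Wt1 are best known from the intermediate mesoderm and the nephrogenic mesenchyme beside it. In whole organs, fewer cells of a type and less RNA per cell cannot be told apart.

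Some arrays stood apart. The ratio of 3′ to 5′ Gapdh signal, a sign of RNA integrity, was 63.16 for pnd2 replicate 3 and 4.333 to 7.18 for the 14 remaining epididymis arrays. Its median signal was 81.24 against 110.3 to 134.0 on all the other arrays. Its mean correlation with the other pnd2 arrays was 0.83, against 0.95 to 0.97 among fetal arrays of a stage. Markers of gonadal supporting and interstitial cells summed to 10050 to 16700 at gd12, 2215 to 3746 at gd14, 1258 to 5583 at gd16, 1229 to 2131 at gd18 and 1232 to 1428 at pnd2 (13 genes measured). The highest gd16 value was that of replicate 9, against 1424 and 1258 on replicates 7 and 8. Of the 11 of these that were tested 8 fell from gd12 to gd14 and 0 rose (limma, adjusted p under 0.05). Each gene of a marker list was represented by its brightest probe set, and in tests by its brightest tested one. Germ cell markers summed to 17160 to 26790 at gd12 and 1693 to 2375 at gd14 (9 genes). Duct epithelium markers went from 6661 to 8387 at gd12 to 21920 to 28530 at pnd2, where 7 of 11 rose and 0 fell. Mesenchyme markers went from 58290 to 70520 at gd12 to 215700 to 236400 at pnd2, where 7 of 10 rose and 0 fell. Skeletal muscle markers summed to 118.2 to 662.2 except on pnd2 replicate 2, with 5521. Among the gonad markers, Dhh and Dmrt1 of Sertoli cells lay at 932.5 to 3161.3 and 360.3 to 1027.2 on the gd12 arrays and at 5.1 to 219.6 and 3.2 to 92.6 on the later ones, whereas Amh was at 3.9 to 38.4 throughout. Adrenal cortex markers summed to 943.3 to 1378 at gd12 and 330.1 to 436.7 at pnd2, and T cell markers to 36.6 to 174.5 over the epididymis arrays. The part of these cells in the results below was not tested.

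**Figure D1:**
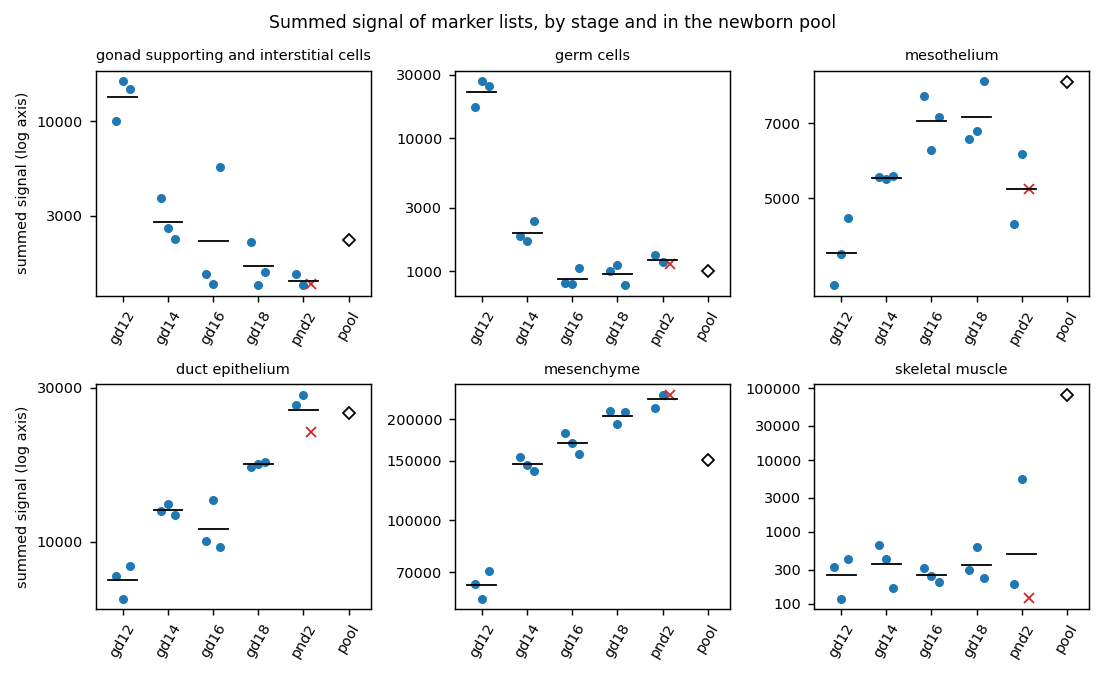
Summed signal of 6 marker lists on each array, on log axes. Dots are arrays, the red cross is pnd2 replicate 3, the black line is the geometric mean of 3 arrays and the open diamond is the newborn pool. The gonad and germ cell sums stand highest on the 3 gd12 arrays, and pnd2 replicate 2 has the highest skeletal muscle sum of the epididymis arrays.

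In the epididymis 6 probe sets, for Lhx1, Gata3, Tfap2a and Sim1, rose between gd12 and pnd2, by 2.19-fold to 4.74-fold. Those for Wt1, Sall1 and Eya1 fell, by 2.60-fold, 4.18-fold and 5.99-fold. In all, 9 of the 13 tested probe sets changed between these ages, 6 higher and 3 lower, where 21.1% of all tested probe sets changed, 10.3% higher and 10.8% lower (limma, Benjamini-Hochberg adjusted p under 0.05). Between consecutive stages 0 of the 13 passed the test, from gd12 to gd14 (8.72% of all tested probe sets did), from gd14 to gd16 (0.0616%), from gd16 to gd18 (0.142%) and from gd18 to pnd2 (0.558%). Asked for any difference among the 5 stages (F test), 8 of the 13 passed, against 20.9% of all. These were the 9 less Lhx1 1421951_at. The F test call of Sim1 1449967_at (limma adjusted p = 0.0409) was lost when any one of 12 of the 15 arrays was left out, with adjusted p up to 0.0875. It was also lost in a fit with no filter (limma adjusted p = 0.0612). The F test call of Tfap2a 1426048_s_at was lost without gd12 replicate 14 (0.0681) or 15 (0.0692). Leaving out pnd2 replicate 3, the same 9 were called from gd12 to pnd2, and the shares of all tested probe sets called were 23.8%, 0.731%, 1.01% and 1.75% for the consecutive steps, 28.1% for gd12 to pnd2 and 38.6% for the F test. In a fit with no filter 8 of the 18 probe sets changed from gd12 to pnd2, against 11% of all, and 0 of the 5 dim ones were among them. The median log2 change from gd12 to pnd2 over all tested probe sets was -0.14.

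**Figure D2:**
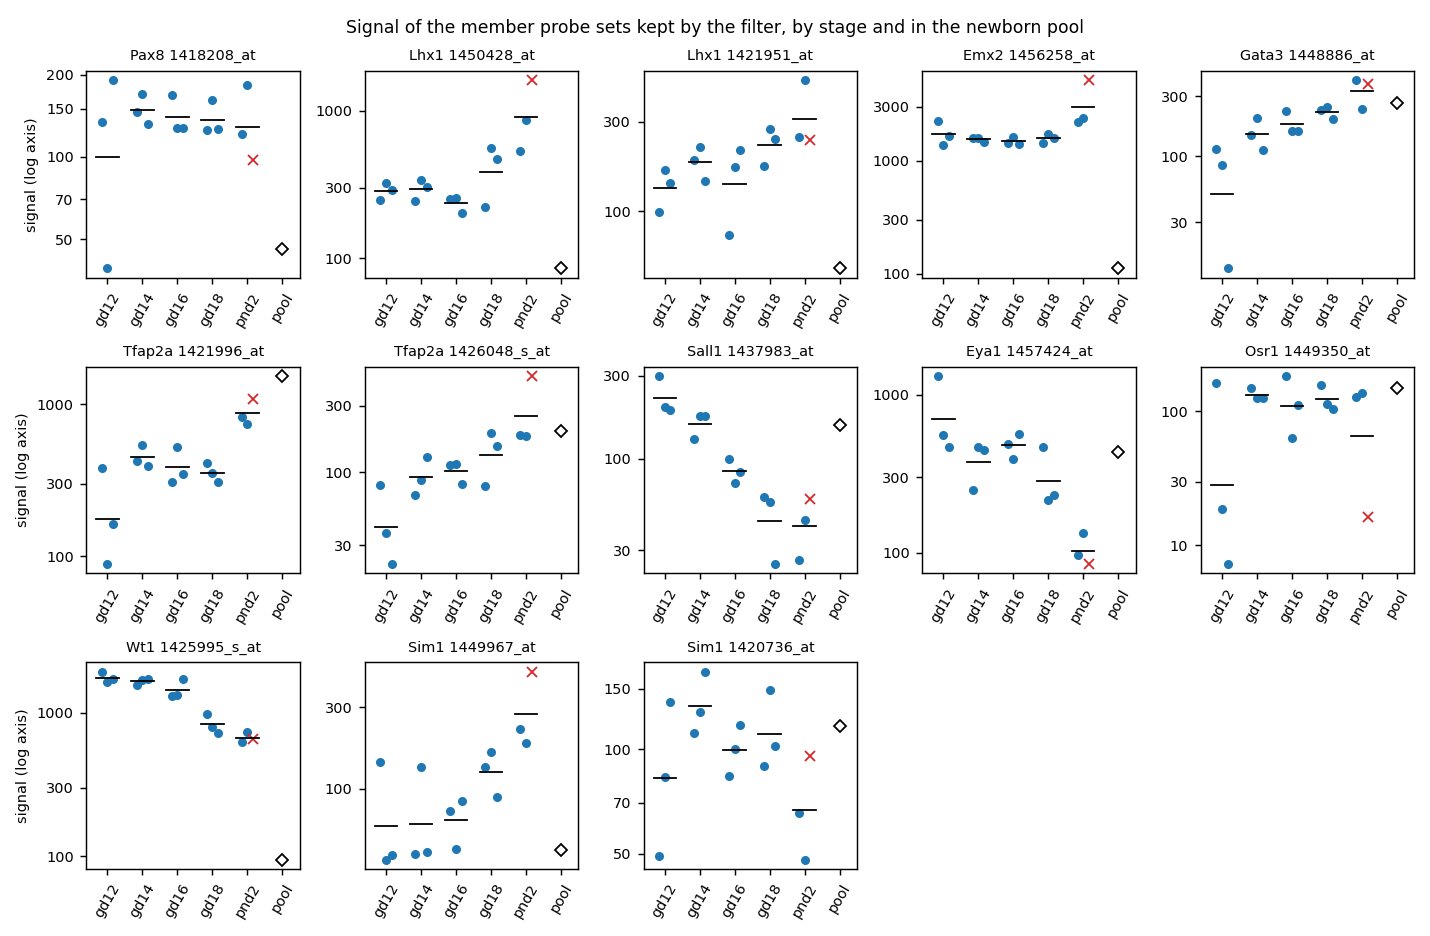
Signal of the 13 tested probe sets on each array, on log axes that differ between panels. Dots are arrays, the red cross is pnd2 replicate 3, the black line is the geometric mean of the 3 arrays of a stage and the open diamond is the newborn pool. Sall1, Eya1 and Wt1 run downwards, with Wt1 at 1646 to 1944 at gd12 and 628 to 732 at pnd2, and Emx2 has its highest mean at pnd2, with arrays at 2182 to 5116.

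Promoters of 3 genes that rose from gd12 to pnd2 are shown, those of Gata3, Tfap2a and Lhx1, to set their letters side by side. Each run holds the 250 bases before a RefSeq start (GRCm38.p6), 5′ to 3′ on the gene's strand, with motif matches in capitals. Gata3 lies at chr2:9878601-9878850 on the minus strand, the upstream Tfap2a start at chr13:40734921-40735170 on the minus strand and Lhx1 at chr11:84525535-84525784 on the minus strand. The Gata3 and Tfap2a runs lie inside the annotated genes, chr2:9857078-9887953 and chr13:40713802-40738238, so that each precedes an internal start. Upstream here is relative to the other Tfap2a start found.
Gata3: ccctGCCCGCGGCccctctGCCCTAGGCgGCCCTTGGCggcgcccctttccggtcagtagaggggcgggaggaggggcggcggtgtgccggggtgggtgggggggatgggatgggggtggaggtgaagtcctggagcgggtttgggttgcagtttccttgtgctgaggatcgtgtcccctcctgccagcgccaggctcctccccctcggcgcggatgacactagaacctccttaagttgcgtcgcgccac
Tfap2a: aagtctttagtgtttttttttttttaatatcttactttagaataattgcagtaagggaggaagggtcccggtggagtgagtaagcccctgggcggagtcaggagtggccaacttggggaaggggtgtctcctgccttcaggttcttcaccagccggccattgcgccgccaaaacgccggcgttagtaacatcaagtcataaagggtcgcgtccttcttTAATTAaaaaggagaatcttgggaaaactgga
Lhx1: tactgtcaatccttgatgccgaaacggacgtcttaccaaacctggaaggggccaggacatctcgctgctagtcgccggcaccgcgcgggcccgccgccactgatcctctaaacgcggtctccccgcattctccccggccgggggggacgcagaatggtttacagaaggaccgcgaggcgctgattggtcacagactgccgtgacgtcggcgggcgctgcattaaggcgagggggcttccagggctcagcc

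The motifs searched, on both strands, were AGATAA for GATA factors, GCCNNNGGC for AP-2, TAATTA for homeodomains, GTGGGAG for WT1, GTCACGC for PAX proteins and TACGTG for SIM1. Gata3 held 3 matches to the AP-2 letters, which begin 246, 231 and 221 bases before the start, and 13.7% of the 32851 promoters in the table hold at least 1. The share with 3 was not counted. The fixed AP-2 letters are all G or C, and the Gata3 run is 70.0% G and C, against a median of 52.4% over all promoters. Tfap2a held TAATTA 32 bases before its upstream start (4.84% of all promoters). Lhx1 held none of these motifs. Promoters were found for 7 of the 10 genes, and among the other 7 promoters of these genes the only match was GTGGGAG, on the opposite strand of Pax8 (8.25% of all promoters). The GATA, PAX and SIM1 letters, held by 9.99%, 1.78% and 2.72% of all promoters, were in 0 of the 10 promoters of these genes. A match of letters is not a measured site, and no array value bears on binding.

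Lhx1 encodes a LIM homeodomain protein needed for the nephric duct to form and extend. Replicate values are given here and below in the order of their numbers in the labels, which run from 13 to 15 at gd12, 10 to 12 at gd14, 7 to 9 at gd16, 4 to 6 at gd18 and 1 to 3 at pnd2. Probe set 1450428_at gave signals of 247, 327 and 289 at gd12, 247, 342 and 302 at gd14, 251, 256 and 205 at gd16, 221, 557 and 472 at gd18, and 537, 867 and 1604 at pnd2. The first 3 stages overlapped, the gd18 arrays spread widely, and the pnd2 arrays all lay above those of gd12, with pnd2 replicate 3 highest. The rise from gd12 to pnd2 was 1.62 ± 0.36 on the log2(signal + 16) scale (SE of the fit, n = 3 arrays a stage, limma adjusted p = 0.00573), and 1.21 ± 0.31 without pnd2 replicate 3 (adjusted p = 0.0081). Of this, the step from gd18 to pnd2 was 1.19 ± 0.36, which missed the threshold (limma adjusted p = 0.131).

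The other Lhx1 probe set, 1421951_at, gave 98.9, 166 and 141 at gd12, 188, 221 and 145 at gd14, 75.1, 172 and 212 at gd16, 174, 274 and 241 at gd18, and 248, 497 and 238 at pnd2. All pnd2 arrays again lay above all gd12 arrays, and pnd2 replicate 2 was highest. Its rise of 1.13 ± 0.37 passed narrowly (limma adjusted p = 0.0402). It no longer passed without any one of gd12 replicates 13, 14 and 15, gd14 replicates 10 and 11, gd18 replicates 5 and 6 or pnd2 replicate 2, where the adjusted p ran from 0.0504 to 0.132 and the change from 0.80 to 1.27. The signals of the pair correlated at 0.63 over the 15 arrays.

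Gata3 encodes a zinc finger protein that acts downstream of Pax2 and Pax8 in the nephric duct. Probe set 1448886_at gave 115, 85.8 and 12.9 at gd12, 147, 203 and 112 at gd14, 230, 160 and 159 at gd16, 235, 248 and 197 at gd18, and 401, 236 and 376 at pnd2. The pnd2 arrays all lay above the gd12 arrays, while neighbouring stages overlapped. Gata3 rose from gd12 to pnd2 by 2.25 ± 0.45 (limma adjusted p = 0.0025, 4.74-fold). Without gd12 replicate 15, the lowest array, the rise was 1.58 (adjusted p = 0.00389). From gd12 to gd14 the change was 1.19 ± 0.45 (limma adjusted p = 0.124).

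Tfap2a encodes AP-2 alpha, known from surface ectoderm, neural crest and distal nephron. Probe set 1421996_at gave 383, 89.3 and 163 at gd12, 424, 541 and 394 at gd14, 309, 524 and 350 at gd16, 411, 356 and 306 at gd18, and 826, 736 and 1086 at pnd2. The gd12 arrays were lowest as a group although replicate 13 reached the range of later stages, and the pnd2 arrays lay above every fetal array. The rise from gd12 to pnd2 was 2.18 ± 0.37 (limma adjusted p = 0.000829). The step from gd12 to gd14, 1.25 ± 0.37, had a limma adjusted p of 0.0527 with all arrays, 0.015 without pnd2 replicate 3 and 0.00267 without gd12 replicate 13. From gd18 to pnd2 the change was 1.26 ± 0.37 (limma adjusted p = 0.122).

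The second tested Tfap2a probe set, 1426048_s_at, gave 80.5, 36.8 and 22.0 at gd12, 69.2, 88.7 and 128 at gd14, 114, 115 and 82.9 at gd16, 79.1, 192 and 155 at gd18, and 184, 181 and 490 at pnd2. It followed the first with a correlation of 0.80 and rose from gd12 to pnd2 by 2.23 ± 0.44 (limma adjusted p = 0.0025). Without pnd2 replicate 3, its highest array, the rise was 1.78 ± 0.43 (limma adjusted p = 0.00582). The probe set reached its array's median on 6 of the 15 arrays, with all of pnd2 and none of gd12 among them. In the fit without the filter its rise was 2.23 ± 0.45 (limma adjusted p = 0.00399). The dim probe set 1421995_at lay between 12.7 and 118 with stages overlapping.

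Sim1 encodes a basic helix-loop-helix PAS protein best known from the hypothalamus. Probe set 1449967_at gave 143, 38.2 and 40.6 at gd12, 41.2, 134 and 42.5 at gd14, 73.8, 43.9 and 85.0 at gd16, 135, 165 and 88.9 at gd18, and 224, 187 and 488 at pnd2. A single array was high at gd12 and at gd14, the gd18 arrays all lay above those of gd16, and the pnd2 arrays lay above all fetal arrays. The probe set reached its array's median on 7 of the 15 arrays, with all of pnd2 among them. The rise from gd12 to pnd2 was 1.88 ± 0.50 (limma adjusted p = 0.016), and 1.88 ± 0.51 in the fit without the filter (limma adjusted p = 0.0247). It was 1.48 ± 0.52 without pnd2 replicate 3 (limma adjusted p = 0.0444), and it did not pass without gd12 replicate 14 (1.61, adjusted p = 0.0712) or replicate 15 (1.64, adjusted p = 0.0675), nor without pnd2 replicate 3, gd14 replicate 10 and gd16 replicate 9 together (adjusted p = 0.054).

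The other Sim1 probe set, 1420736_at, ran differently. It gave 49.2, 83.2 and 137 at gd12 and 65.3, 48.0 and 95.5 at pnd2, with a change of -0.26 ± 0.35 (limma adjusted p = 0.63), and its correlation with the first was -0.38. The rise of Sim1 was thus seen with 1 of its 2 probe sets.

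Eya1 encodes a transcriptional coactivator and phosphatase of nephrogenic mesenchyme. Probe set 1457424_at gave 1313, 558 and 465 at gd12, 251, 465 and 449 at gd14, 489, 394 and 568 at gd16, 466, 215 and 231 at gd18, and 97.0, 134 and 85.1 at pnd2. The pnd2 arrays lay below every fetal array, and gd12 replicate 13 stood far above all the others. Eya1 fell from gd12 to pnd2 by 2.58 on the log2 scale (SE 0.38, limma adjusted p = 0.00027). Between gd18 and pnd2 the change was -1.34 ± 0.38 (limma adjusted p = 0.116). The dim probe set 1443117_at went from 104 to 136 at gd12 to 2.27 to 64.5 at pnd2 with no overlap. In a fit of all probe sets without the filter its change was -1.87 ± 0.59 (limma adjusted p = 0.0559). Probe set 1421727_at stayed between 6.62 and 99.5.

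Sall1 encodes a zinc finger protein of the metanephric mesenchyme, mutated in Townes-Brocks syndrome. Probe set 1437983_at gave 299, 198 and 192 at gd12, 130, 178 and 175 at gd14, 100, 73.0 and 84.0 at gd16, 60.3, 56.5 and 25 at gd18, and 26.3, 44.5 and 59.1 at pnd2. From gd12 to gd18 each stage lay wholly below the one before, whereas gd18 and pnd2 overlapped. Taken singly, these steps down were seen for 4424, 2585 and 2578 of the 25981 tested probe sets. The probe set reached its array's median on 6 of the 15 arrays, those of gd12 and gd14, and so entered the test through the stages where it is high. The fall from gd12 to pnd2 was 2.06 on the log2 scale (change -2.06 ± 0.33, limma adjusted p = 0.00053). In the fit without the filter the change was -2.06 ± 0.35 (limma adjusted p = 0.00107). No single step passed, the widest being gd14 to gd16 with -0.79 ± 0.33 (limma adjusted p = 0.872). The dim probe set 1450489_at lay between 3.86 and 50.2.

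Wt1 encodes a zinc finger protein of the gonad, the mesothelium, nephron progenitors and podocytes. Probe set 1425995_s_at gave 1944, 1646 and 1719 at gd12, 1558, 1705 and 1738 at gd14, 1316, 1340 and 1723 at gd16, 987, 801 and 728 at gd18, and 628, 732 and 655 at pnd2. The first 3 stages overlapped, and the gd18 and pnd2 arrays all lay below them. The change from gd12 to pnd2 was -1.38 ± 0.17 (limma adjusted p = 6.18e-05). From gd16 to gd18 it was -0.79 ± 0.17, with an adjusted p of 0.136 in limma and 0.0162 without pnd2 replicate 3. Replicate 9, the gd16 array with the highest gonad marker sum, was also the highest gd16 array for Wt1, and without it this difference was -0.66 (limma adjusted p = 0.618). The largest value in that sum was Cyp17a1 at 2211.4, against 23.3 and 8.5 on replicates 7 and 8. On replicate 9 the supporting cell markers Dhh (97.8) and Dmrt1 (24.6) lay between replicates 7 and 8, and Sox9 (147.5) lay below them. Lhx9 (394.1), Nr5a1 (140.8) and Gata4 (156.7) lay above them.

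Between gd12 and gd14, where 8 of 11 tested gonad markers fell with a median log2 change of -2.83 over the list, the Wt1 difference was -0.08 ± 0.17 (limma adjusted p = 0.85). Mesothelium markers, another source of Wt1, summed to 3382 to 4564 at gd12, 6208 to 7903 at gd16, 6526 to 8444 at gd18 and 4444 to 6086 at pnd2. This sum joins genes that moved in opposite directions. Of the 9 tested, 3 rose and 3 fell from gd12 to pnd2, and 5 rose and 3 fell without pnd2 replicate 3. Bnc1 went from 1074.8 to 1515.3 at gd12 to 444.1 to 748 at pnd2. Upk1b went from 67.6 to 132.2 at gd12 to 477.7 to 654.5 at pnd2. Nephron and podocyte markers summed to 4822 to 6928 over the fetal arrays, and to 4921, 4866 and 1805 on pnd2 replicates 1, 2 and 3. The largest part was Podxl, at 2780.2 to 4501.7 on the fetal arrays. Of the 11 genes measured 6 passed the filter. Among those that did not was Nphs1, at 4.7 to 119.3 over the epididymis arrays. Cdh6 went from 449.6 to 1189 at gd12 to 123.1 to 215.2 at pnd2, so the sum does not speak for each gene. The part of these cells in the Wt1 signal was not tested.

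Emx2, Pax8 and Osr1 did not pass the test in any stage comparison of the fit described, although Emx2 and Osr1 did from gd12 to pnd2 under some alternatives given with their values. Emx2 encodes a homeodomain protein without which the urogenital tract does not develop. Its probe set 1456258_at gave 2256, 1375 and 1660 at gd12, 1582, 1582 and 1455 at gd14, 1431, 1604 and 1409 at gd16, 1424, 1733 and 1574 at gd18, and 2182, 2377 and 5116 at pnd2. The pnd2 arrays lay above those of gd14, gd16 and gd18 but 1 gd12 array reached their range. The change from gd12 to pnd2 was 0.78 ± 0.27 (limma adjusted p = 0.053), and 0.40 ± 0.17 without pnd2 replicate 3, its highest array (limma adjusted p = 0.0955). It passed without gd12 replicate 13 (0.97, adjusted p = 0.0364), pnd2 replicate 1 (1.01, adjusted p = 0.0185) or pnd2 replicate 2 (0.95, adjusted p = 0.0314). It also passed with all arrays after quantile normalization (adjusted p = 0.0426) and with the brightest probe set per gene (adjusted p = 0.0431).

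Pax8 encodes a paired domain protein that, with Pax2, specifies the nephric lineage. Probe set 1418208_at gave 134, 39.1 and 191 at gd12, 146, 170 and 132 at gd14, 169, 128 and 128 at gd16, 126, 161 and 127 at gd18, and 121, 183 and 97.1 at pnd2. All stages overlapped, and gd12 replicate 14 was the lowest array. The change from gd12 to pnd2 was 0.29 ± 0.40 (limma adjusted p = 0.638). Probe set 1446561_at was dim, at 12.0 to 75.9 at gd12 and 93.3 to 107 at pnd2.

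Osr1 encodes an odd-skipped related zinc finger protein of early intermediate mesoderm. Probe set 1449350_at gave 163, 18.8 and 7.28 at gd12, 150, 127 and 125 at gd14, 184, 63.5 and 113 at gd16, 158, 114 and 105 at gd18, and 128, 137 and 16.4 at pnd2. The gd12 replicates 14 and 15 and pnd2 replicate 3 were far below the rest. The change from gd12 to pnd2 was 0.77 ± 0.69 (limma adjusted p = 0.449), and 1.5 ± 0.63 without pnd2 replicate 3 (limma adjusted p = 0.088), and it passed with array weights (1.69, adjusted p = 0.0324). From gd12 to gd14 it was 1.51 ± 0.69 (limma adjusted p = 0.215), and it passed without gd12 replicate 13 (2.39, adjusted p = 0.0262), as did Gata3 (1.61, adjusted p = 0.0441).

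The gd12 arrays differed among themselves for many of these genes. Replicate 13 was the highest of its stage for the main probe sets of Emx2, Gata3, Tfap2a, Sall1, Eya1, Osr1, Wt1 and Sim1 but the lowest for Lhx1. It also had the lowest sum of gonad markers at gd12, 10050. Replicate 14 had the highest, 16700, and the lowest sum of duct epithelium markers, 6661 against 7827 and 8387 on replicates 13 and 15. On replicate 14 Cldn7 was at 109.4, against 484.8 and 679.4 on the others, whereas Epcam (3530.2), Esrp1 (895.5) and Cdh1 (533) were highest there. The part of these differences in the gd12 means was not tested.

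**Figure D3:**
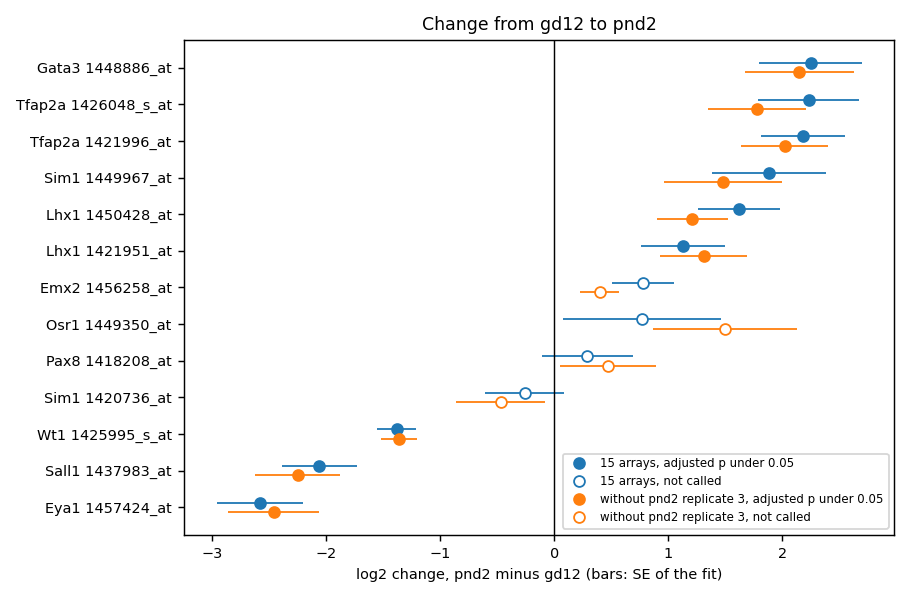
Log2 change from gd12 to pnd2 of the 13 tested probe sets with SE bars, from all 15 arrays and without pnd2 replicate 3. Filled symbols passed an adjusted p of 0.05 and open symbols did not. The same 9 probe sets are filled in both fits, 6 to the right of 0 and 3 to the left.

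Set against whole newborns, the genes split by how far the epididymis stood above the rest of the body. With a single pool array there is no test, and a probe set is counted when all 3 arrays of a stage lie at least 2-fold on one side of the pool. At pnd2 that held for 6 of the 13 on the higher side (9.65% of all tested probe sets) and 2 on the lower side (7.11%), and for as many without pnd2 replicate 3. At gd18 it held for 6 higher (16.3%) and 2 lower (7.66%), at gd16 for 4 higher (17.8%) and 1 lower (8.63%), at gd14 for 5 higher (17.5%) and 1 lower (8.84%), and at gd12 for 3 higher (14.3%) and 3 lower (9.09%).

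Emx2 stood farthest above the pool at pnd2, with a stage mean 28.9 times the pool signal, from 19.6 times on replicate 1 to 45.9 times on replicate 3. At gd18 it was 14.1 times the pool and at gd12 15.8 times. Wt1 came down from 18.7 times the pool at gd12 to 8.86 times at gd18 and 7.09 times at pnd2, and remained above it on every array. Lhx1 1450428_at went from 3.35 times at gd12 to 4.86 times at gd18 and 11.7 times at pnd2, and 1421951_at stood at 6.60 times at pnd2. Pax8 lay between 2.63 and 3.23 times the pool over the 5 stages, and Sim1 1449967_at between 1.55 and 6.87 times, while Sim1 1420736_at lay between 0.597 and 1.17 times. In the pool itself Pax8, Lhx1, Emx2, Wt1 and Sim1 lay below the median of the array, so that these ratios rest on dim signals.

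Tfap2a 1421996_at stayed below the pool, at 0.138 times at gd12, 0.234 times at gd18 and 0.576 times at pnd2. The other Tfap2a probe set, 1426048_s_at, went from 0.235 times at gd12 to 0.719 times at gd18 and 1.44 times at pnd2, with pnd2 replicate 3 at 2.48 times. The pool holds skin, whose epidermal markers summed to 91100 there against 1321 to 3557 in the epididymis, and nervous tissue, whose markers summed to 6586 against 459.1 to 2794. The part of these tissues in the pool signal was not tested. Gata3 went from 0.269 times the pool at gd12 to 1.27 times at pnd2. Sall1 and Eya1 crossed in the other direction, Sall1 from 1.47 to 0.278 times and Eya1 from 1.78 to 0.241 times. Osr1 lay between 0.419 and 0.891 times the pool.

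**Figure D4:**
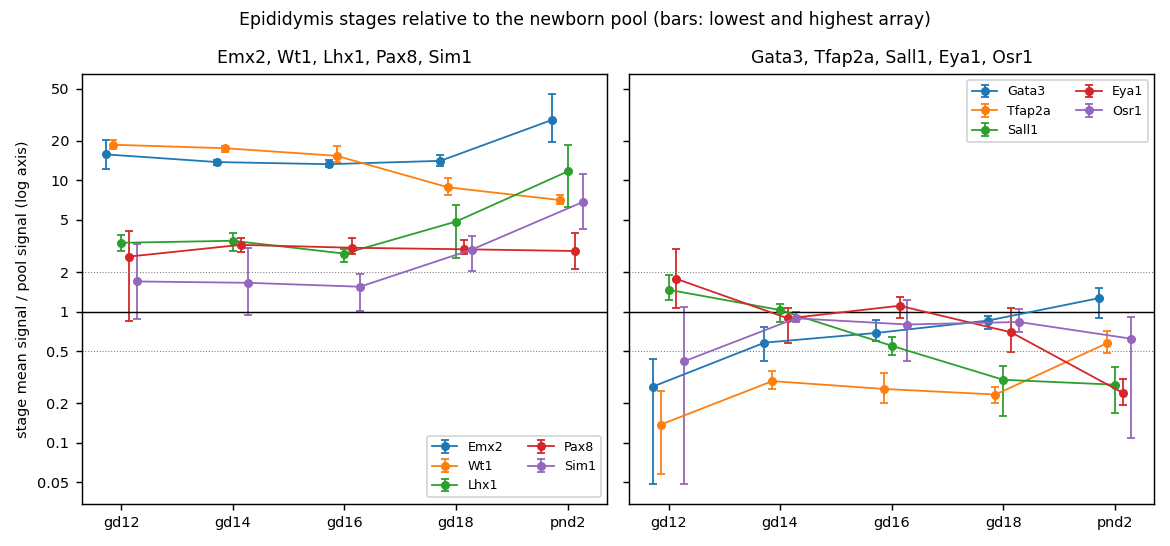
Stage mean signal over the signal of the newborn pool for the brightest probe set of each of the 10 genes, on a log axis. Lhx1 1421951_at, Tfap2a 1426048_s_at and Sim1 1420736_at are not drawn. Bars run from the lowest to the highest of the 3 arrays, and dotted lines mark 2-fold above and below the pool. Emx2 and Wt1 lie above the upper line at every stage, Tfap2a 1421996_at lies below the pool throughout, and Sall1 and Eya1 start above the pool and end below it.

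Other regulators of the nephric duct and intermediate mesoderm changed in both directions as well. Of 38 listed, 29 were tested, each with the brightest tested probe set of the gene. From gd12 to pnd2 8 rose and 10 fell, with a median log2 change of -0.36. Over all tested probe sets, where a gene can have several, 10.3% rose and 10.8% fell, with a median of -0.14. The shares given beside the lists are thus of an unlike set. The largest rises were those of Pou3f3, a POU factor of distal nephron (2.99 ± 0.49), and Osr2, the relative of Osr1 (2.83 ± 0.71). Osr2 was at 24.9 on pnd2 replicate 3, and without that array the rises were 2.60 ± 0.47 for Pou3f3 and 4.06 ± 0.31 for Osr2. The largest falls were those of Sall4 (-5.56 ± 0.54), a relative of Sall1 and a germ cell gene, and Lhx9 (-5.18 ± 0.43), a gonad gene. Both are also on the marker lists for germ cells and gonad, whose sums fell over the same interval as given above. From gd12 to gd14 there were 5 that rose, led by Osr2 (2.65 ± 0.71) and Tbx3 (2.37 ± 0.62), and 4 fell, with Sall4 at -4.40 and Lhx9 at -4.17 lowest (8.72% of all changed). Without pnd2 replicate 3, 9 rose and 5 fell (23.8% of all changed). In the later intervals 0 of the 29 passed, and without pnd2 replicate 3 the number was 3 from gd14 to gd16, 0 from gd16 to gd18 and 3 from gd18 to pnd2.

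Among signals and effectors of the duct 25 of 30 were tested, again with the brightest tested probe set of each gene. Their median log2 change from gd12 to pnd2 was 0.58. Of the 25 genes 9 rose and 5 fell, where 21.1% of all tested probe sets changed. Inhba, the subunit of activin A made by the Wolffian duct, rose most (3.68 ± 0.46), followed by the kidney cadherin Cdh16 (2.55 ± 0.72). Cdh16 was at 164.8 on gd12 replicate 14, against 1637.3 and 2965 on gd12 replicates 13 and 15. Robo2, a receptor for Slit ligands, fell most (-2.54 ± 0.36), followed by Etv5, a target of Ret signalling (-2.20 ± 0.26). Gdnf, the ligand of Ret, fell already from gd12 to gd14 (-2.32 ± 0.35), as did Etv5 (-1.53 ± 0.26), while Inhba rose (3.04 ± 0.46) and so did Pcdh7 (1.72 ± 0.28). Ret itself was too dim to be tested, at 11.1 to 99.5 over the epididymis arrays. The gonad and germ cell marker sums also fell from gd12 to gd14, and the part of those cells was not tested. In that interval 4 of the 25 rose and 2 fell (8.72% of all changed), and in the later ones 0 passed. Without pnd2 replicate 3, 10 rose and 2 fell from gd12 to gd14 (23.8% of all), 1 passed from gd14 to gd16 and 0 in the later steps.

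Across the 15 arrays the falling genes ran side by side. Sall1 correlated with Wt1 at 0.90 and with Eya1 at 0.76, and Eya1 with Wt1 at 0.86. Lhx1 correlated with Emx2 at 0.83, which was 0.61 without pnd2 replicate 3, and with Eya1 at -0.82. These are descriptions over arrays that share their stages, so any genes that move with age correlate. By the same measure the genes nearest to Sall1 were Zfp521 (0.956), Thsd7b (0.95) and Cpne8 (0.939), and those nearest to Wt1 were Hmga2 (0.954), Hbb-y (0.945) and Cdh2 (0.944). Eya1 had Polr2d, Usp19 and Cdh10 at 0.921 to 0.913.

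Of the rising genes, Gata3 ran closest to Irx2 (0.916), Rassf4 (0.915) and Smad1 (0.911). Tfap2a ran closest to Hacd4 (0.931), Snhg8 (0.929) and Caps2 (0.917), and Sim1 to Cetn4 (0.927), Pid1 (0.913) and Klhl14 (0.901). The neighbours of Lhx1 were Pde5a (0.931), Pfdn5 (0.915) and Rps26 (0.911), and those of Emx2 were Hddc2 (0.966), Igbp1 (0.956) and Zscan21 (0.945). Without pnd2 replicate 3 the values for Lhx1 dropped to between 0.81 and 0.857 and those for Emx2 to between 0.813 and 0.874. Pax8 ran closest to Tmem62 (0.868), Rin2 (0.868) and Klhl42 (0.842), and Osr1 to Sdc2 (0.908), Fgfr2 (0.907) and Pik3cg (0.898).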

How the data were processed

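The values, as deposited, are linear intensities (signals), 1 for each probe set on each array, made by the authors with GCOS, the Affymetrix software, per the submitters' processing notes. For its version and signal algorithm the sources used here give nothing. The trimmed mean, without the lowest and highest 2% of each array, was 500.0 on all 16 arrays, so no further scaling was applied. Symbols came from the array annotation; 34945 probe sets have 1 symbol, 932 several, 9160 are not listed and 64 are controls. Probe sets ending in _s_at can match several transcripts. Values were taken as log2(signal + 16), which understates changes of dim probe sets, and filtered at the array median on at least 3 of 15 arrays. limma 3.58.1 in R 4.3.3 was fitted with 1 mean per stage, an intensity trend and Benjamini-Hochberg adjustment within each comparison over the 25981 probe sets, and was tested on simulated data. In the simulated comparison of gd14 with gd12, 51% of changes of 1.5 and 95% of changes of 3 on the log2 scale were recovered. It held 100 changed probe sets of each size among the 25981, with independent noise, and gave 9 false calls. Recovery on the real arrays can differ, because their noise and numbers of changes differ from these settings. A step that did not pass is not shown to be absent. The newborn pool was not in the fit. Promoters came from RefSeq. The number of arrays limits the precision. The p-values rest on 1 spread per probe set, taken between arrays within stages over all stages and moderated by the trend. That spread joins arrays labelled as pools with arrays that have no such label, and it includes pnd2 replicate 3 unless left out. The genes, marker lists, tests and alternatives were chosen with earlier results of these data known. Genes outside the 10 are named as the called genes of a list with the largest change up and down, at most 4 a comparison, or as the 3 nearest patterns of a gene. The marker lists covered gonad, germ cells, mesothelium, nephron, duct epithelium, mesenchyme, nerve, epidermis, skeletal muscle, adrenal cortex and T cells. Alternatives were quantile normalization, median centring, other constants, no filter, the brightest probe set of a gene, no trend, array weights, fits to the 6 arrays compared, stricter limits, and leaving out arrays. A motif of the promoter search is not reported here.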

Additional observations from a re-analysis of the deposited data

How the results depend on the processing

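Direction was compared for the 13 changes from gd12 to pnd2 and for 9 changes between consecutive stages. It turned for Pax8 1418208_at (0.29, -0.27 without gd12 replicate 14, range -0.27 to 0.68 with an array left out) and Sim1 1420736_at (-0.26, 0.05 without gd12 replicate 15, range -0.56 to 0.05), neither of which was called. The marker and regulator lists were recomputed only without pnd2 replicate 3. For Wt1, Sall1, Eya1 and Tfap2a 1421996_at the change from gd12 to pnd2 passed in all 27 alternatives. The number of the 10 genes' probe sets called from gd12 to pnd2 was 9 and ran from 7 to 10 with an array left out. It was 4 in a fit to only the 6 arrays of the comparison, where Lhx1 1450428_at, Gata3 and Tfap2a 1426048_s_at had adjusted p of 0.0688, 0.0751 and 0.0553, Sim1 1449967_at 0.101 and Lhx1 1421951_at 0.146. With array weights 3 passed from gd12 to gd14 and 1 from gd16 to gd18, the latter also with only 6 arrays, and 1 from gd12 to gd14 with the brightest probe set per gene or without 3 arrays (gd14 replicate 10, gd16 replicate 9 and pnd2 replicate 3). In the F test 4 passed an adjusted p under 0.01. With an array left out these counts ran from 0 to 3 (gd12 to gd14), 0 to 0 (gd14 to gd16), 0 to 1 (gd16 to gd18), 0 to 1 (gd18 to pnd2) and 6 to 9 (F test).

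Counts over all probe sets moved more. From gd12 to gd14 the count was 2265, and it became 5895 with array weights, 5054 with 6 arrays, 4470 without 3 arrays, 1082 at an adjusted p under 0.01 and 1313 to 6190 with an array left out. From gd14 to gd16 it was 16, and became 35 after quantile normalization, 27 without a trend, 471 with array weights, 383 with 6 arrays, 35 without 3 arrays, 6 under 0.01 and 6 to 190 with an array left out. From gd16 to gd18 it was 37, and became 64 (quantile), 18 (constant 1), 438 (weights), 281 (6 arrays), 8 (under 0.01) and 7 to 262. From gd18 to pnd2 it was 145, and became 71 (median centring), 236 (constant 64), 65 (no filter), 71 (brightest), 864 (weights), 0 (6 arrays), 223 (without 3 arrays), 2 (under 0.01) and 3 to 820. From gd12 to pnd2 it was 5476, and became 3358 (brightest), 1456 (6 arrays), 2869 (under 0.01) and 3825 to 7293. For the F test it was 5440, and became 3232 (brightest), 10008 (weights), 2652 (under 0.01) and 3753 to 10040. The cause was not tested.

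Against the pool, a 3-fold limit left 1 lower at gd12, 2 higher and 0 lower at gd14, 2 higher and 0 lower at gd16, 3 higher and 1 lower at gd18, and 1 lower at pnd2, where median centring also left 1. With an array left out the counts were 3 to 4 higher and lower at gd12, 5 higher and 1 to 2 lower at gd14, 4 to 5 higher and 1 lower at gd16, and 6 higher and 2 lower at gd18 and pnd2. No paired analysis was possible because no replicate number is shared between stages. Dim probe sets, such as those of Osr1, Sim1 and Gata3 at gd12, carry the widest errors.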
